A study of Mus musculus with 10 samples.

Results

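The genes described here encode the secreted Wnt ligands, their receptors at the cell surface and the proteins that tune the signal, in C2C12 cells that received synthetic miR-142-3p, a microRNA, or a scrambled RNA. They were chosen by gene symbol in the scanner files: every numbered Wnt, Fzd, Sfrp, Dkk and Rspo gene and every gene whose symbol starts with Tcf7, together with Lrp5, Lrp6, Ror1, Ror2, Kremen1, Wif1, Axin1, Axin2, Apc, Ctnnb1 and Lef1. The rule used no measured value and found 55 of the 34607 distinct names counted as genes on the array, on 71 probes. A probe without a gene name was counted under its own identifier. By role they were 19 ligands, 14 receptors, 14 extracellular modulators, 4 intracellular proteins and 4 nuclear factors.

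Wnt proteins are lipid-modified signals that bind Frizzled receptors and, in the canonical branch, the coreceptors Lrp5 and Lrp6. Without a Wnt, a complex built on Axin and Apc marks beta-catenin for destruction; with one, beta-catenin (Ctnnb1) accumulates, enters the nucleus and acts through the DNA-binding factors Tcf7, Tcf7l1, Tcf7l2 and Lef1. Sfrp and Wif1 proteins bind Wnts outside the cell, Dkk proteins block Lrp5 and Lrp6 with help from Kremen receptors, and Rspo proteins raise the number of receptors at the surface. In the embryo, Wnts from the neural tube and ectoderm help to start the muscle programme in the somite, and Wnts also act in muscle regeneration.

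C2C12 is an established mouse myoblast line that fuses into myotubes when growth stops. The cells were kept in serum-containing growth medium and transfected with a Lipofectamine reagent, the mimic group with 150 nM of a mirVana miR-142-3p mimic and the scramble group with 150 nM of a scrambled sequence. The efficiency was given as about 60% and the read-out time as 72 hours, and 150 ng of total RNA per sample was labelled with Cy3 for a 1-colour Agilent array. The study describes independent transfections behind its 6 mimic and 4 scramble samples, but the file headers place the 10 scans on 5 positions of 1 slide, each scanned on 2 days, so scans of 1 position were averaged and n = 3 mimic arrays and n = 2 scramble arrays. A remark on re-analysis stands in the title of each of the 4 scramble samples and in no mimic title, and the sources used here do not explain it. P-values reflect how these 5 arrays vary, and some of that may be technical.

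Values below are log2 signals relative to the 75th percentile of the scan, so 0 marks that percentile, and differences are mimic minus scramble on the same log2 scale. A probe's signal also depends on its own sequence, so levels are compared between groups and not between genes. A scan had 25.4% to 34.6% of its 59305 non-control spots well above background. Of 10 myoblast markers, 8 were measured and 5 were lower with the mimic, Myod1 among them with a difference of −3.25, while Pax7 was never well above background and Myf5 was so on 3 of 6 mimic scans and on no scramble scan. Of 12 myotube markers, 9 were lower, Myog among them with a difference of −7.08, and their summed linear signal was 31.2 to 37.9 times the 75th percentile on the mimic arrays, against 611 times on both scramble arrays. All 6 epithelial markers, 5 of 8 leukocyte markers including Ptprc, and 3 of 4 endothelial markers were never well above background. The other leukocyte and endothelial markers were detected in both groups. Itgam (mean 4.05 with the mimic, 3.90 with scramble), Csf1r and Kdr were well above background on all 10 scans. Cd3e was so on 5 of 6 mimic and 3 of 4 scramble scans, and none of them passed the threshold on the probe tested. Of 6 fibroblast markers, Postn and Pdgfrb were lower and Lum was higher at the threshold, Postn being tested through the scramble scans alone. The summed signal of the 6, 161 to 177 on the mimic arrays and 82.8 to 128 on the scramble arrays, came mostly from Dcn, which was not called (difference 0.82, adjusted p = 0.0727). Of 5 adipocyte markers, Pparg was higher (difference 1.24) and the other 4 were never well above background, with summed signals of 18.5 to 22.7 with the mimic and 7.93 to 10.0 with scramble. These fibroblast and adipocyte genes, and Itgam, Csf1r, Cd3e and Kdr, were named after their values were seen. The part of these shifts in the Wnt results was not tested, and in bulk RNA fewer cells of a type and less RNA per cell cannot be told apart.

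The transfected molecule is shown first because its seed, bases 2 to 8 in capitals, is the stretch by which a microRNA pairs with its targets. The mature sequence is that of RefSeq (GRCm38.p6, chromosome 11, plus strand), where the gene is named Mir142.
mmu-miR-142a-3p: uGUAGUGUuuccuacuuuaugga
The 7 letters that pair with this seed, ACACTAC, occurred in 0 of the 71 probes of the Wnt genes and in 144 of all 55681 probes (0.259%). The shorter 6-letter match, CACTAC, occurred in 1 of the 71, a probe of Fzd5, and in 506 of all probes (0.909%). A 60-base probe covers a small stretch of a transcript, so this describes the probes and not the transcripts.

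Promoter sequences are shown for Dkk2, Sfrp2 and Lef1, the genes past the threshold under either filter that the RefSeq table holds, as the stretch just before the start of transcription on the plus strand of mouse chromosome 3 in GRCm38.p6. Lef1 is shown at its first listed start and at an internal one, where capitals mark the only match in the 4 stretches to the Tcf/Lef motif, spelled CTTTG followed by 2 bases that are each A or T and searched on both strands. Other listed Lef1 starts, which held no match to this motif, are not shown.
Dkk2 chr3:132085042-132085291: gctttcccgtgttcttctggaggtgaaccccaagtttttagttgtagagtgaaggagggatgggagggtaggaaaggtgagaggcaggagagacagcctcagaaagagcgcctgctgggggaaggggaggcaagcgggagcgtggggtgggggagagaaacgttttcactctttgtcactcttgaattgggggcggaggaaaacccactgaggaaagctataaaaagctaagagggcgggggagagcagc
Sfrp2 chr3:83766071-83766320: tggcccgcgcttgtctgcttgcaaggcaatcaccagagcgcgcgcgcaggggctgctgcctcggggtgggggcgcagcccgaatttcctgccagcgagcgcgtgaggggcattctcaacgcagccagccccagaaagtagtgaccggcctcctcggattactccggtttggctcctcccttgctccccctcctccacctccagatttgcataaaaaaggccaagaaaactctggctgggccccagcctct
Lef1 chr3:131110047-131110296: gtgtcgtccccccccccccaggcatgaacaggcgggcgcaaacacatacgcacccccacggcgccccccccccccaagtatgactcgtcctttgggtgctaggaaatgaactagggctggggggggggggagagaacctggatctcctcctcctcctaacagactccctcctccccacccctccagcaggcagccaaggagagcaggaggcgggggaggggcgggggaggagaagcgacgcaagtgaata
Lef1 chr3:131156044-131156293: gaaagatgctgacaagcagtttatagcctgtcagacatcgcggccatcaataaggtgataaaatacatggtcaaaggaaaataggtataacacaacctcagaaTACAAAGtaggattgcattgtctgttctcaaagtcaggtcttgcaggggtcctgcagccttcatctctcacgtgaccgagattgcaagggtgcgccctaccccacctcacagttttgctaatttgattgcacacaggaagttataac
The table held 45 promoters of 36 of the Wnt genes. The Tcf/Lef motif lay in 6 of the 45, those of Dkk1, Fzd7, Lef1, Tcf7l2, Wnt11 and Wnt5b, and in 14.84% of all 32851 promoters of the same length. The E-box CAGCTG, the form favoured by Myod1 and Myog, lay in 4 of the 45 and in 13.0% of all. A match is a run of letters and no shown binding site.

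Detection of these genes was close to that of the whole array. Of the 71 probes 44 were never well above background. On no scan were 31 of the 55 genes well above background, 24 were so on at least 1 scan, and 10 were so on all 10 scans. The filter for testing asked for a probe well above background on 4 or more of the 10 scans, which kept 19 of the 55 genes (34.5%), beside 39.5% of all genes. Receptors were kept more often, 7 of 14, than ligands, 4 of 19, or extracellular modulators, 3 of 14; of the 4 intracellular and 4 nuclear genes, 2 and 3 were kept. No difference between these shares was tested.

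**Figure D1:**
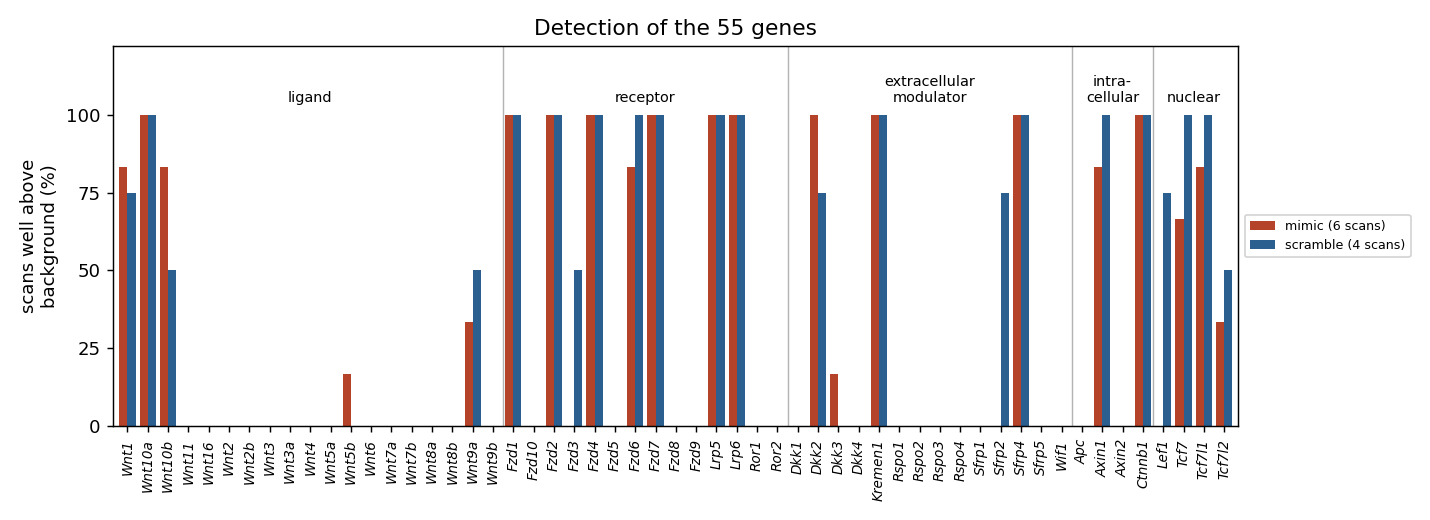
Share of scans (y axis, %) on which each of the 55 genes (x axis, by role) was well above background, mimic (red, 6 scans) beside scramble (blue, 4 scans). Each gene is shown by its probe with the most scans well above background. Most ligands and all 4 Rspo genes have no bar, and Sfrp2, Lef1 and Fzd3 have a bar for scramble alone.

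In the test of mimic against scramble by limma, 2 of the 19 kept Wnt genes passed an adjusted p of 0.05, against 9.74% of all 13677 genes tested. Dkk2 rose (5.86% of all genes rose) and Fzd2 fell (3.88% of all fell), and 5 of the 19 (26.3%) had an unadjusted p below 0.05, beside 25.3% of all genes. The median difference of the 19 was −0.18, beside 0.09 over all genes. The arrays of the groups did not overlap for 8 of the 19, with 2 higher and 6 lower in the mimic, against 42.6% of all genes. The shares called, with an unadjusted p below 0.05 and without overlap were all near those of all genes. All adjusted p-values here come from this fit over all genes unless another is named.

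**Figure D2:**
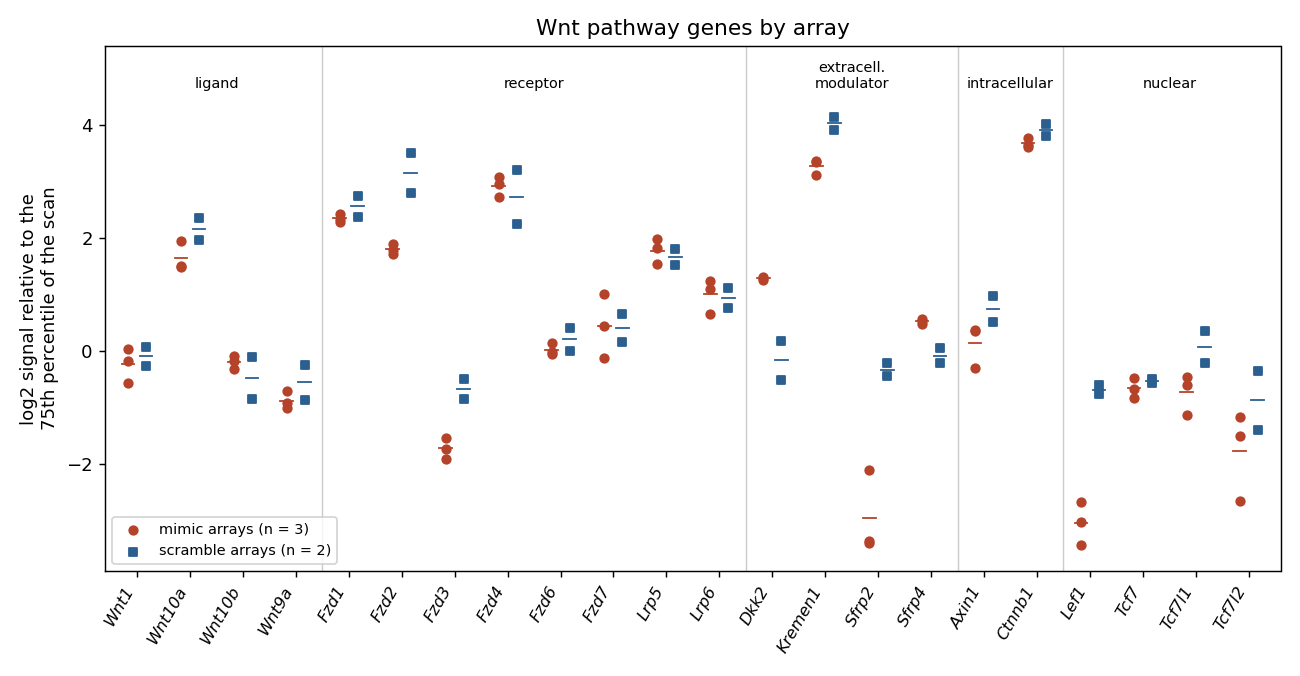
Log2 signal relative to the 75th percentile of the scan (y axis) of the 19 kept Wnt genes and of Fzd3, Sfrp2 and Lef1 (x axis, by role), with 1 red circle per mimic array (n = 3), 1 blue square per scramble array (n = 2) and a line at each group's mean. Mimic arrays lie apart from scramble arrays for Fzd2, Dkk2 and Kremen1, and for Sfrp2, Lef1 and Fzd3, which no mimic scan had well above background. Most ligands and receptors overlap or nearly do.

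Among the ligands, none of the 4 kept genes changed at the limma threshold, and 0 had an unadjusted p below 0.05. Wnt10a, a canonical ligand known from tooth and skin, had 1.51, 1.95 and 1.49 on the mimic arrays, against 2.35 and 1.96 on the scramble arrays. All 3 mimic arrays were below both scramble arrays, with mimic array 2 close to scramble array 2, and the difference of −0.51 (SE 0.24) had an adjusted p of 0.22. Wnt10b, a ligand known to hold back fat cell formation, had −0.32, −0.09 and −0.18 with the mimic and −0.11 and −0.85 with scramble. Its groups overlapped (difference 0.28, adjusted p = 0.53).

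Wnt1, the founding member of the family and a signal of the dorsal neural tube, had −0.56, −0.17 and 0.03 on the mimic arrays and −0.26 and 0.08 on the scramble arrays, with a difference of −0.14 (adjusted p = 0.76). Wnt9a, a ligand of joints and other tissues, had −0.92, −0.70 and −1.01 with the mimic and −0.25 and −0.86 with scramble, and was well above background on 2 of 6 mimic and 2 of 4 scramble scans (difference −0.32, adjusted p = 0.45). Both sets of values overlapped between the groups. Wnt5b was well above background on 1 mimic scan and was not tested. The other 14 ligands, Wnt2, Wnt2b, Wnt3, Wnt3a, Wnt4, Wnt5a, Wnt6, Wnt7a, Wnt7b, Wnt8a, Wnt8b, Wnt9b, Wnt11 and Wnt16, were never well above background, which at this signal leaves any difference in them not detectable.

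Among the receptors, Fzd2 fell and the other 6 kept genes did not pass the threshold. Fzd2, a Frizzled used in both the canonical and the beta-catenin-independent branches, had 1.79, 1.90 and 1.73 on the mimic arrays, against 2.80 and 3.51 on the scramble arrays. The mimic arrays lay close together and well below both scramble arrays, which differed from each other by more than the mimic arrays did. Its mean was 1.81 ± 0.09 (SD, n = 3) with the mimic and 3.16 ± 0.50 (SD, n = 2) with scramble, a 2.55-fold fall (difference −1.35, 95% limits −1.92 to −0.78, limma adjusted p = 0.0124). The probe (chromosome 11, 102467613 to 102467672, mm9 as in the files) was well above background on all 10 scans. A second Fzd2 probe, at 102469045 to 102469104, was never well above background and stood at −2.96 with the mimic and −1.41 with scramble. The fall missed the threshold without mimic array 1 (adjusted p = 0.0566), with scaling to the scan's median (0.0526), in the authors' value table (0.0676) and with no filter on dim probes (0.146), with a difference of −1.43 to −1.27 in these. With a second filter, described below with Fzd3, the call was also lost without any 1 of the mimic arrays (limma adjusted p of 0.0621 to 0.0798). Each slide row held both groups, and within the rows the difference was −1.04 in row 1 and −1.61 in row 2.

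Fzd4, the receptor of norrin as well as of Wnts in vessels of the retina, had 2.95, 3.08 and 2.73 with the mimic and 3.20 and 2.25 with scramble. Fzd1 had 2.33, 2.43 and 2.29 with the mimic and 2.74 and 2.38 with scramble. Scramble array 1 was the highest for both genes and the groups overlapped, with differences of 0.20 for Fzd4 (adjusted p = 0.71) and −0.21 for Fzd1 (0.57). Fzd7, a Frizzled described in mouse satellite cells, varied widely among mimic arrays, at 1.0, 0.44 and −0.12, and had 0.15 and 0.66 with scramble (difference 0.03, 95% limits −0.73 to 0.80, adjusted p = 0.97). A second Fzd7 probe, well above background on 1 mimic scan alone and not tested, stood at −2.51 with the mimic and −3.03 with scramble. Fzd6, a receptor of planar cell polarity, had 0.15, −0.06 and −0.02 with the mimic and 0.01 and 0.40 with scramble, and its difference of −0.18 had 95% limits of −0.67 to 0.31 (adjusted p = 0.63). Mimic array 1 lay above scramble array 1, so these groups overlapped too.

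The coreceptors stayed within the spread of the arrays on the probes tested. Lrp5 had 1.53, 1.82 and 1.98 with the mimic and 1.52 and 1.80 with scramble (difference 0.12, 95% limits −0.39 to 0.62, adjusted p = 0.79). Lrp6 had 0.66, 1.25 and 1.10 with the mimic and 1.11 and 0.75 with scramble (difference 0.07, 95% limits −0.50 to 0.63, adjusted p = 0.89). A second kept Lrp6 probe ran the other way, at 0.05, 0.28 and 0.19 with the mimic and 0.36 and 0.61 with scramble, a difference of −0.31. The tested coreceptor probes thus gave limits on both sides of 0.

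Fzd3, a Frizzled of axon guidance and planar polarity, was well above background on none of 6 mimic scans and on 2 of 4 scramble scans, both of scramble array 1, and so was not kept by the filter on 4 scans. That filter asks for 4 of 6 scans of a gene seen with the mimic alone but for 4 of 4 of a gene seen with scramble alone, so a second filter asked for a share of 0.5 of the scans of either group. It kept 22 of the Wnt genes, adding Fzd3, Lef1 and Sfrp2, of 14215 genes in all. Fzd3 had −1.91, −1.53 and −1.73 on the mimic arrays, against −0.49 and −0.85 on the scramble arrays, with no overlap. Scramble array 2 was not well above background on either scan, so no fold is given, and the means were −1.72 with the mimic and −0.67 with scramble. The limma adjusted p was 0.0285 with the second filter, 0.258 with no filter and 0.0718 in the authors' value table. Fzd5, Fzd8, Fzd9, Fzd10, Ror1 and Ror2 were never well above background.

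With the second filter 5 of the 22 Wnt genes passed the threshold, against 8.48% of all genes. Dkk2 was the 1 that rose, where 4.9% of all genes rose, and Fzd2, Fzd3, Lef1 and Sfrp2 were the 4 that fell, where 3.58% of all fell. Fzd3, Lef1 and Sfrp2 entered only through the scramble scans, where they were brighter, so their difference was partly set by the filter, and neither these counts nor the p-values of these 3 genes under that filter carry support of their own.

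**Figure D3:**
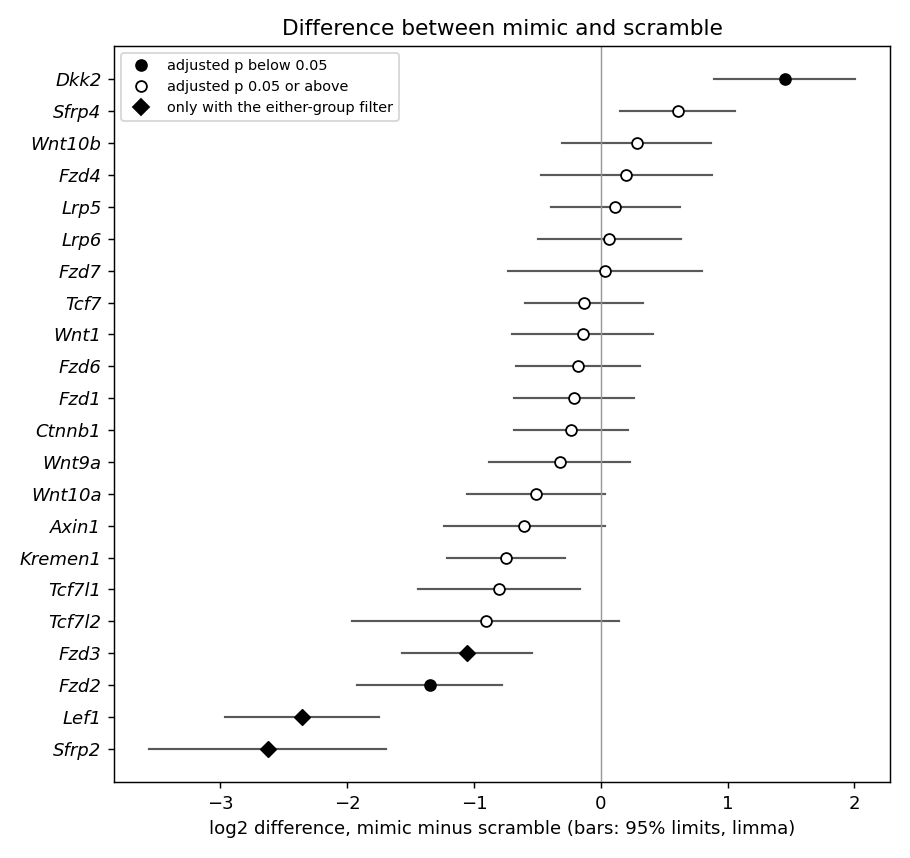
Log2 difference, mimic minus scramble (x axis, bars are 95% limits from limma), of the 22 Wnt genes kept by either filter (y axis). Dkk2 lies right of 0 and Fzd2 left of it (filled circles, adjusted p below 0.05), the 3 diamonds were tested only with the filter on either group, which they passed through the scramble scans alone, and the other genes (open circles) did not pass.

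Among the extracellular modulators, Dkk2 rose and the other 2 kept genes did not pass the threshold. Dkk2, which binds Lrp5 and Lrp6 and can block or, in some settings, weakly activate them, had 1.26, 1.31 and 1.29 on the mimic arrays, against 0.18 and −0.51 on the scramble arrays. The 3 mimic arrays were nearly equal and all above both scramble arrays. Its mean was 1.29 ± 0.03 (SD, n = 3) with the mimic and −0.16 ± 0.48 (SD, n = 2) with scramble, a 2.73-fold rise (difference 1.45, 95% limits 0.89 to 2.01, limma adjusted p = 0.00801). The probe (chromosome 3, 131842357 to 131842416, mm9) stood well above background on all 6 mimic scans and on 3 of 4 scramble scans, the exception being scramble array 2 on the first day. Among 21 settings that changed 1 choice the call was lost only with no filter on dim probes (adjusted p = 0.104), and with the second filter it was also lost without any 1 of the mimic arrays (0.0512 to 0.0608). Within the slide rows the difference was 1.10 in row 1 and 1.82 in row 2.

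Sfrp2, a secreted Wnt-binding protein known from muscle regeneration, had −3.37, −2.11 and −3.39 on the mimic arrays, against −0.21 and −0.45 on the scramble arrays. It was well above background on none of 6 mimic scans and on 3 of 4 scramble scans, the exception being again scramble array 2 on the first day. A gene below background throughout a group has no measured level there. Each mimic scan was therefore given a floor, the lowest signal at which any probe was well above background on it. The probe's own signal was used where it was greater, and the scramble mean was set against the mean of these values. The floor is no strict bound, since some spots were not well above background at higher signals. Wnt10b, at −0.02 on mimic array 2 on the first day, was 1 of them. Against this floor Sfrp2 was 1.88-fold lower with the mimic (means −2.96 and −0.33). The limma adjusted p was 0.00797 with the second filter, which the gene passed through the scramble scans alone, 0.0273 with no filter and 0.00953 in the authors' value table. These fits took mimic signals that were not well above background as measured levels, so none of these p-values carries support of its own. Its probe is on chromosome 3, 83577864 to 83577923 (mm9).

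Kremen1, the receptor that takes Dkk-bound Lrp6 off the cell surface, had 3.12, 3.37 and 3.35 on the mimic arrays, against 3.92 and 4.14 on the scramble arrays. The groups did not overlap, but the difference of −0.75 (95% limits −1.21 to −0.28) missed the threshold at a limma adjusted p of 0.0561, and passed it in 10 of 22 other settings. Those 10 include the 10 scans as samples and the 10 scans with a replicate block, which take scans of 1 array as separate samples. They also include the fit without scramble array 1, which leaves 1 scramble array. The rest of the 10 were normexp background, the percentile over bright probes, quantile normalization and the filter on all scans. The mean of a gene's probes, the first scan day alone, and scan day as a block with array as a random block complete them. A second Kremen1 probe was never well above background. Sfrp4, another secreted Wnt-binding protein, had 0.57, 0.48 and 0.53 on the mimic arrays, all above the 0.05 and −0.22 of the scramble arrays, with a difference of 0.61 (95% limits 0.16 to 1.06) and an adjusted p of 0.098. Dkk3 was well above background on 1 mimic scan and was not tested. Dkk1, Dkk4, Sfrp1, Sfrp5, Wif1, Rspo1, Rspo2, Rspo3 and Rspo4 were never well above background.

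**Figure D4:**
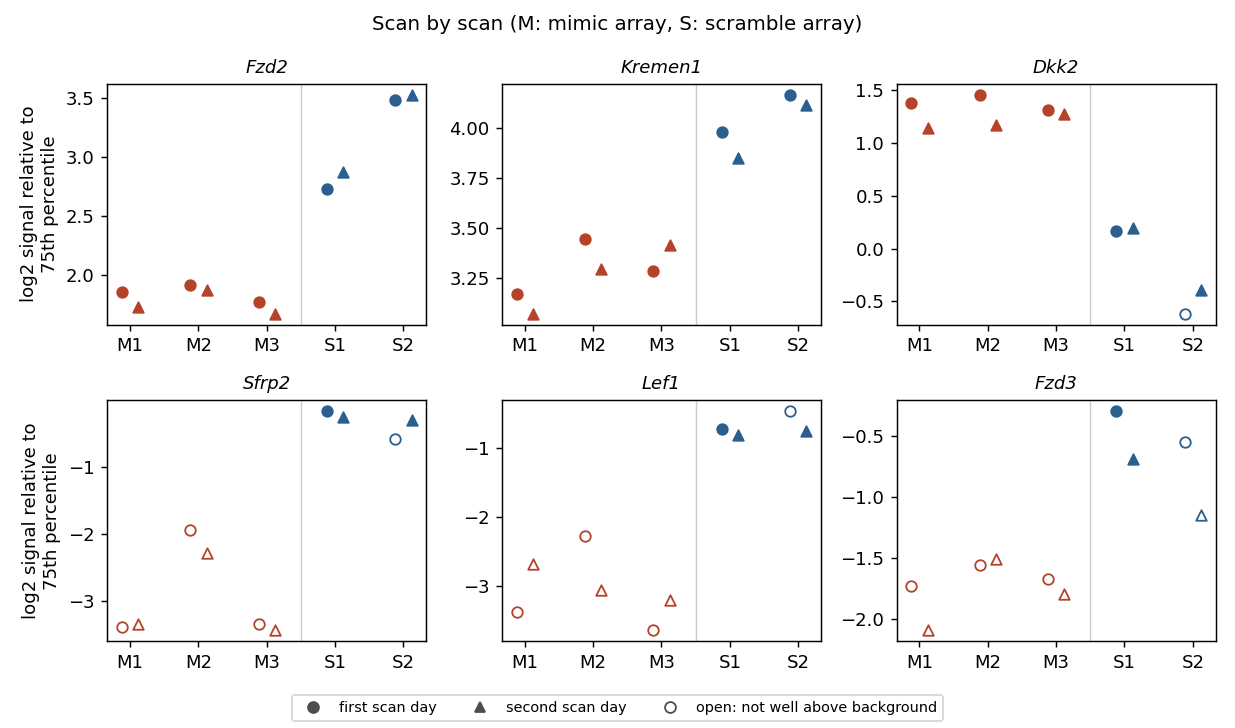
Log2 signal relative to the 75th percentile (y axes, which differ between panels) on each scan of mimic arrays M1 to M3 (red) and scramble arrays S1 and S2 (blue) for 6 Wnt genes, with circles for the first and triangles for the second scan day. Open symbols are scans not well above background, which include every mimic scan of Sfrp2, Lef1 and Fzd3.

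Among the intracellular genes, both kept members were lower on every mimic array without passing the threshold, and 0 had an unadjusted p below 0.05 (limma). Ctnnb1, beta-catenin itself, had 3.60, 3.77 and 3.65 on the mimic arrays, against 3.80 and 4.02 on the scramble arrays. The gap between mimic array 2 and scramble array 1 was small beside the spread, and the difference of −0.24 (95% limits −0.69 to 0.22) had an adjusted p of 0.50. Axin1, the scaffold of the destruction complex, had 0.36, −0.30 and 0.38 with the mimic and 0.51 and 0.98 with scramble (difference −0.60, adjusted p = 0.22). Apc and the feedback target Axin2 were never well above background.

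Among the nuclear factors, none of the 3 kept genes passed the threshold (limma, 1 with an unadjusted p below 0.05), and Lef1 was tested with the second filter alone. Lef1, which brings beta-catenin to its target genes, had −3.03, −2.67 and −3.43 on the mimic arrays, against −0.76 and −0.61 on the scramble arrays. None of 6 mimic scans and 3 of 4 scramble scans were well above background, the exception being scramble array 2 on the first day. Against the floor described with Sfrp2, which is no strict bound, Lef1 was 1.47-fold lower with the mimic (means −3.04 and −0.68). Its limma adjusted p of 0.00171 holds for the second filter, which it too passed through the scramble scans alone. A second Lef1 probe was never well above background and stood at −2.61 with the mimic and −1.06 with scramble. With no filter and in the authors' value table that second probe stood for the gene, with differences of −1.55 (adjusted p = 0.173) and −0.26 (0.778). In the authors' table that probe had a value on 1 mimic scan.

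Tcf7l1, a factor that mostly acts as a repressor of Wnt target genes, had −1.13, −0.61 and −0.45 on the mimic arrays, against −0.22 and 0.36 on the scramble arrays. The groups did not overlap and the difference of −0.80 (95% limits −1.44 to −0.16) had an adjusted p of 0.118. Tcf7l2 had −1.51, −2.65 and −1.17 with the mimic and −0.35 and −1.39 with scramble, was well above background on 2 of 6 mimic and 2 of 4 scramble scans, and overlapped between groups (difference −0.91, adjusted p = 0.26). Within the slide rows the Tcf7l2 difference was −1.0 in row 1 and −1.25 in row 2. Row 2 held only mimic array 2 and scramble array 2, and neither detected this probe on either scan day. Its difference thus compares dim signals and carries no support of its own. With the row as a block the difference of −1.11 passed the threshold (limma adjusted p = 0.0407). That call also draws on row 2, so it is limited in the same way. The 2 other Tcf7l2 probes, never well above background, differed by 0.28 and −0.09. Tcf7, a factor with both activating and repressing forms, had −0.67, −0.83 and −0.48 with the mimic and −0.57 and −0.49 with scramble (difference −0.13, adjusted p = 0.73). A second Tcf7 probe, well above background on 1 mimic scan alone and not tested, stood at −2.03 with the mimic and −2.79 with scramble.

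**Figure D5:**
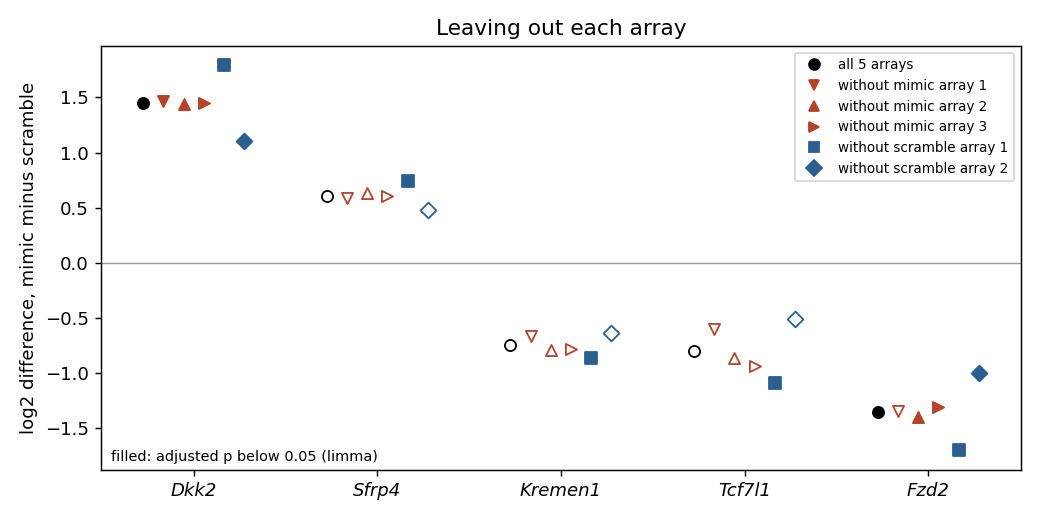
Log2 difference, mimic minus scramble (y axis), of the 5 kept Wnt genes with an unadjusted p below 0.05 (x axis), with all 5 arrays (black circle) and without each array in turn; filled symbols have an adjusted p below 0.05 (limma). No difference changes sign, Dkk2 is filled throughout, Fzd2 is open without mimic array 1, and all 5 genes are filled without scramble array 1.

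Without scramble array 1, Kremen1, Sfrp4 and Tcf7l1 passed beside Dkk2 and Fzd2, 5 of 19, while 26.9% of all genes then passed. Without mimic array 1 only Dkk2 passed, and without each of the other 3 arrays both Dkk2 and Fzd2 did.

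The wider pathway was described with 82 further genes for Wnt secretion, reception and relay, of which 50 were kept. With the mimic 1 rose and 3 fell, 4 of 50 against 9.74% of all genes, and the median difference was −0.02. Daam2, a formin that joins Dishevelled to the actin skeleton, had 0.75, 0.55 and 0.66 on the mimic arrays and 2.47 and 2.22 on the scramble arrays (3.22-fold lower, adjusted p = 0.00122). Musk, the muscle-specific kinase of the neuromuscular junction whose outer part resembles that of Frizzled, had 1.38, 1.81 and 1.57 with the mimic and 2.69 and 2.70 with scramble (2.15-fold lower, adjusted p = 0.0143). Both genes were separated without overlap.

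Tnks, tankyrase, which marks Axin for degradation, had −0.38, −0.20 and −0.38 on the mimic arrays and 0.32 and 0.65 on the scramble arrays (1.75-fold lower, adjusted p = 0.0465). Nkd2, an inhibitor of Dishevelled, had 1.71, 1.87 and 2.32 with the mimic and 1.11 and 0.89 with scramble (1.96-fold higher, adjusted p = 0.0422). Tnks and Nkd2 were close to the threshold. With the second filter 2 of 52 genes of this list fell and none rose (limma, 5 with an unadjusted p below 0.05). Of all genes 8.48% then passed, 4.9% higher and 3.58% lower. Wls and Porcn, which are needed to carry and to lipidate Wnts, differed by 0.42 (adjusted p = 0.23) and −0.18 (0.70). Dvl2, a Dishevelled, differed by −0.52 (adjusted p = 0.24). Gsk3b, the kinase that phosphorylates beta-catenin, differed by −0.11 on the probe tested (adjusted p = 0.83) and by −1.10 and −0.03 on 2 other kept probes.

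A second list held 43 genes described elsewhere as raised by beta-catenin in some cell type, 5 of them also among the 55, and 21 were kept. In this list 1 rose and 2 fell, 3 of 21 against 9.74% of all genes (5.86% higher, 3.88% lower), with a median difference of 0.03. Nrcam, a neuronal adhesion molecule, had 0.34, 0.83 and 0.33 on the mimic arrays and −2.54 and −2.93 on the scramble arrays, where no scan had it well above background. Against a floor set in the same way on the scramble scans, again no strict bound, it was 2.84-fold higher (means 0.50 and −2.73, adjusted p = 0.000131). It was tested through the mimic scans alone, so its difference was partly set by the filter. Neither its adjusted p nor its place in the count of 3 of 21 carries support of its own. Bmp4, a growth factor of the bone morphogenetic protein family, had 0.89, 0.98 and 1.01 with the mimic and 2.69 and 2.41 with scramble (3.00-fold lower, adjusted p = 0.00168). Both were separated without overlap.

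Sik1, a salt-inducible kinase, had 0.37, −0.31 and −0.42 on the mimic arrays and 1.15 and 1.30 on the scramble arrays (2.55-fold lower, adjusted p = 0.0179). The cell cycle genes Ccnd1 and Myc differed by 0.14 (adjusted p = 0.72) and 0.59 (0.10). With the second filter 1 gene of this list rose and 3 fell, 4 of 24 against 8.48% of all genes, Lef1 being the addition. Nrcam passed that filter through the mimic scans alone and Lef1 through the scramble scans alone, so this count carries no support of its own. Both lists were chosen with earlier results of these data known.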

How the data were processed

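Gene expression was measured on 1-colour Agilent arrays in C2C12 cells. Each deposited scanner file holds linear spot intensity. Per the file headers the software was Feature Extraction 12.0.0.7, whereas version 10.7.3.1 is given per the submitters' processing notes. The deposited value table also holds linear intensity, which tracked each scan at r of at least 0.996 (log2); the sources used here do not give its between-array step.

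The processed signal, already corrected for background by the scanner software per the file headers, was put on a log2 scale minus the scan's 75th percentile. Outlier spots were left out, spots of a probe averaged, and probes kept when well above background on at least 4 of 10 scans (17455 probes). The kept probe with the highest mean stood for its gene (13677 genes). Names were updated through RefSeq (GRCm38.p6; 28026 probes by accession, 3418 by symbol, 295 by synonym), and 23942 probes kept the file's name.

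Scans of 1 position were averaged because the headers give them 1 position; by signal alone they do not part from the rest, with r of at least 0.986 within and up to 0.991 between positions. The comparison used limma 3.58.1 (lmFit, then eBayes) under R 4.3.3, with 3 residual and 5.26 prior degrees of freedom. P-values were adjusted by Benjamini-Hochberg across all kept genes, and an adjusted p of 0.05 was the threshold. At most 1 spot of a scan was saturated, and the number of arrays limits the precision.

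Replicate numbers shared by the groups were checked as pairs: same-numbered scans deviated from their group means with r between −0.28 and 0.19, and 0 of 4 scramble scans correlated best with their own number, so they were not taken as pairs. Every kept Wnt gene is named with its difference and adjusted p, and the others by detection. Of the 2 wider lists, called genes and 6 preset genes (Gsk3b, Dvl2, Porcn, Wls, Ccnd1 and Myc) are named. Members and lists were chosen with earlier results of these data known. Alternatives covered background, scaling, filters, probes, scan days, slide rows, single arrays, the deposited table and robust fitting.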

Additional observations from a re-analysis of the deposited data

How the results depend on the processing

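No difference of a kept Wnt gene that passed the threshold changed sign under the other settings in which it was tested (21 for Dkk2, 22 for Fzd2), and 7 genes that did not pass changed sign in at least 1. Dkk2 ranged between 0.96 and 1.79 and Fzd2 between −1.70 and −1.0. The number of tested Wnt genes past the threshold was 2 of 19. It became 1 with scaling to the median and 3 with the slide row as a block (adding Tcf7l2). It was also 3 with normexp background, the percentile over bright probes or quantile normalization (adding Kremen1). Over all 13677 genes these last 3 settings called 649, 674 and 774 higher and 475, 664 and 599 lower. Taking the 10 scans as 10 samples gave 7. With no filter it was 1 of 55 (Sfrp2, which the main filter did not keep). With the filter on either group it was 5 of 22, a count that carries no support of its own. With a replicate block on the 10 scans it was 5 (Dkk2 at 1.48, Fzd2, Kremen1, Tcf7l1 and Tcf7l2). Leaving out 1 array gave 1 to 5, with 1 without mimic array 1 and 5 without scramble array 1. For the 82 pathway genes the count of 4 became 2 with normexp background, 1 with scaling to the median, 1 with no filter, 2 with the filter on either group, 10 with 10 samples, 2 on the second scan day, 2 with the slide row as a block and 2 in the authors' value table, and 1 to 12 without 1 array, the 12 without scramble array 1. For the 43 target genes the count of 3 became 5 with normexp, 6 with the percentile taken over probes bright on all scans, 5 with quantile normalization, 7 with 10 samples and 7 with the replicate block, and 2 to 5 without 1 array. Over all genes the count of 1332 became 761 with scaling to the median, 407 with no filter, 4154 with 10 samples, 2336 with the replicate block, 810 with the slide row and 616 in the authors' table, and 641 to 3671 without 1 array, the 3671 without scramble array 1. Scaling moved the median of all genes between −0.04 and 0.18. Why these counts moved was not tested. Signal over background limits the reading, since 31 of the 55 genes were never well above background, as do the 3 mimic and 2 scramble arrays.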
